A study of Saccharomyces cerevisiae with 10 samples.

Results

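The COS genes are a family of closely related genes that lie at the ends of budding yeast chromosomes. Members were taken as the genes with a symbol from COS1 to COS12 among the annotated probe sets of the array, with the brightest probe set kept for each gene. COS111, an unrelated gene inside a chromosome arm, was left out. This gave 8 of the 5449 Saccharomyces cerevisiae genes measured, namely COS2, COS4, COS6, COS7, COS8, COS9, COS10 and COS12, each with 1 probe set. The gene table lists 11 COS genes, and the other 3 (COS1, COS3 and COS5) have no probe set annotated under their own symbol. The probe sets of COS2, COS4 and COS7 carry the suffix _s_at, which marks probes shared by several transcripts, and none carries _x_at. Their values are therefore uncertain as measures of 1 gene, and the other 5 members have probe sets without such a suffix, although close relatives could still contribute signal.

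Cos proteins span the membrane several times and travel through endosomes. They carry ubiquitin and help to bring plasma membrane proteins into multivesicular bodies, from which the ESCRT machinery sends them to the vacuole for breakdown. Genes near yeast telomeres lie where the Sir proteins can silence transcription, and that silencing differs from one chromosome end to another. Sua5 takes part in making threonylcarbamoyladenosine, a modified base of tRNAs, and has been tied to telomere maintenance.

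RNA was measured on 10 Affymetrix yeast arrays, each from 1 mid-log culture grown in liquid YPD, a rich medium. The wild type was BY4742 (3 clones), a haploid laboratory strain. The SUA5 deletion strains (sua5D) were MAT a spores dissected from a BY4743-derived diploid with 1 deleted copy of SUA5. They were sampled after the 1st restreaking on YPD plates (4 clones, labelled 35 generations after sporulation) and after the 12th (3 clones, labelled 300 generations). The labels do not say which clone of the 1st restreaking gave rise to which clone of the 12th, or from which spore each came. The design text calls the clones of a group independent. The p-values weigh differences between group means against the spread between the samples within groups. They treat the 4 clones of the 1st restreaking as independent. Deviations from the group mean, however, correlated positively inside 2 pairs of these clones (1 with 2, 0.40, and 3 with 4, 0.49). Across the pairs they correlated negatively (-0.76 to -0.69). The p-values may therefore be too small. With the clones averaged in pairs, 6 of 8 COS genes were still higher than in the wild type. Whether a pair shares a spore was not tested.

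SUA5 read between 506 and 532 in the wild type and at most 5.22 on every deletion array, under the background limit of 10.8 to 17.5 set by probe sets for another yeast species. Of the tested genes, 97.7% to 99.1% lay above that limit on each array, and all 8 COS genes did so on all 10 arrays. The number of arrays limits the precision. All 7 genes of the mating type a list were higher and all 4 of the alpha list lower in both deletion groups than in the wild type, with STE2 at 64.1 ± 6.39 (SD, n = 3) in the wild type and 1948 ± 172 (SD, n = 4) at the 1st restreaking. In every comparison with the wild type, loss of SUA5 and mating type cannot be told apart. The auxotrophic marker gene MET17 read 4192, 4176 and 4381 in the wild type, at most 15.3 on replicates 1 and 2 of the 1st restreaking and at most 96.9 at the 12th, so at the 12th it too differs with the group and cannot be told apart from it. On replicates 3 and 4 of the 1st restreaking MET17 read 4899 and 4662, while LYS2, a marker that read at most 17.4 in the wild type, read 2953 and 2890. Against the wild type, 6 of 8 COS genes were higher with replicates 1 and 2 alone and 7 of 8 with replicates 3 and 4 alone. An intensity is an average over a culture, so fewer cells expressing a gene and less RNA per cell cannot be told apart either.

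The first question was how COS expression differed soon after the loss of SUA5, at the 1st restreaking against the wild type. COS8, COS12 and COS7 were at least 2-fold higher in the deletion strains, and COS9, COS4 and COS2 were higher by less. COS6 and COS10 did not pass the test, and no member was lower. Thus 6 of 8 members were higher (limma, Benjamini-Hochberg adjusted p under 0.05 over all genes), where 41.5% of all tested genes were higher and 37.5% lower. That balance turned with the scaling. With equal array medians 5 members and 1958 of all genes were higher and 2475 genes lower, and after quantile normalization 6 members and 1807 genes were higher and 1 member and 2402 genes lower. The arrays of those 6 members did not overlap the wild type, as was the case with a rise for 40.4% of all tested genes. For the 3 members at least 2-fold higher, the share of all tested genes past the same rule was 10.3%. The median log2 change was 0.40 for the COS genes and 0.03 for all genes. Among the 5 members without a shared probe set, 3 were higher, 2 of them at least 2-fold.

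COS8 (YHL048W) read 291, 286 and 269 in the wild type, 1151, 1119, 1343 and 1300.4 at the 1st restreaking, and 1292, 1374 and 1398 at the 12th. Every deletion array stood far above every wild-type array. The change at the 1st restreaking was 4.17-fold on the log2(intensity + 16) scale (log2 change 2.06 ± 0.07, SE; adjusted p = 4.25e-12). COS7 (YDL248W) read 639, 656 and 583 in the wild type, 1613, 1731, 1909 and 1819 at the 1st restreaking, and 1820.1, 1953 and 2033 at the 12th. Again the wild-type arrays did not overlap the others, and the change was 2.78-fold (log2 change 1.47 ± 0.06, SE; adjusted p = 7.33e-11). The probe set of COS7, 1772057_s_at, is a shared one, so the rise cannot be assigned to COS7 alone.

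COS12 (YGL263W) was the member that differed most between clones. It read 47.9, 50.4 and 39.5 in the wild type. On replicates 1 and 2 of the 1st restreaking it read 152 and 135, and on replicates 3 and 4 it read 574 and 562. The arrays of the 12th restreaking read 513, 512 and 524, close to replicates 3 and 4. All deletion arrays lay above the wild type, and the fitted change at the 1st restreaking was 4.94-fold with a wide interval (log2 change 2.30, 95% interval 1.45 to 3.16; adjusted p = 0.000108). The group mean of 356 ± 245 (SD, n = 4) matched none of its 4 arrays.

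**Figure D1:**
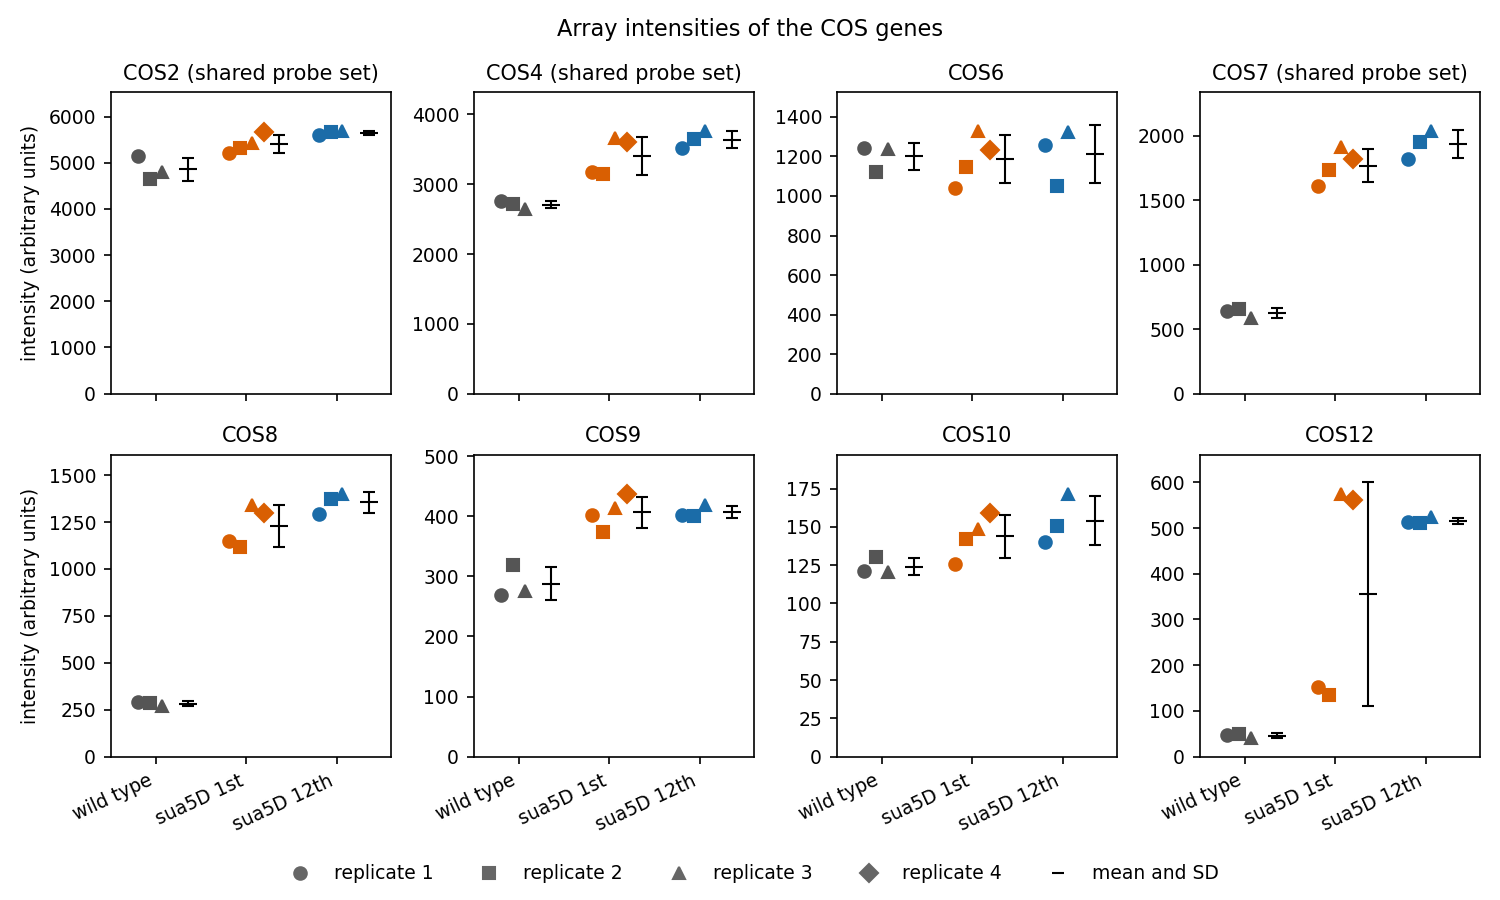
Intensity of each of the 8 COS genes on the 10 arrays (vertical axis from 0, arbitrary units, a different scale in each panel), by group, with a symbol for each replicate number and the group mean and SD in black. COS7, COS8 and COS12 are separated most clearly from the wild type, and COS12 splits the 1st restreaking into 2 arrays at 152 and 135 and 2 at 574 and 562.

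The other members differed little from the wild type. COS9 (YKL219W) read 269, 319.7 and 275 in the wild type and 403, 374, 414 and 437 at the 1st restreaking, with no overlap, a 1.39-fold rise (log2 change 0.48 ± 0.07, SE; adjusted p = 2.2e-05). COS4 (YFL062W; shared probe set 1779503_s_at) read 2762, 2714 and 2651 against 3176, 3149.8, 3661 and 3607, again without overlap, a 1.25-fold rise (log2 change 0.32 ± 0.05, SE; adjusted p = 8.36e-05). Both rises were smaller than those of COS7 and COS8 but larger than the spread between arrays.

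COS2 (YBR302C; shared probe set 1775486_s_at) read 5137, 4645 and 4802 in the wild type and 5206, 5312, 5426 and 5671 at the 1st restreaking. The lowest deletion array lay just above the highest wild-type array, and the rise was 1.11-fold (log2 change 0.15 ± 0.04, SE; adjusted p = 0.00314). With array medians set equal, the median log2 change over all genes went from 0.03 to -0.08, and COS2 no longer passed (log2 change 0.04, adjusted p = 0.443). COS10 (YNR075W) read 121, 131 and 121 against 126, 142, 149 and 159, with overlapping groups (log2 change 0.19, 95% interval -0.002 to 0.38; adjusted p = 0.0649). After quantile normalization COS10 pointed the other way (log2 change -0.32, adjusted p = 0.00511), so it has no settled direction.

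COS6 (YGR295C) read 1244, 1119.9 and 1236 in the wild type and 1039, 1148, 1327 and 1234 at the 1st restreaking. The groups overlapped fully, and the log2 change was -0.02 (95% interval -0.21 to 0.17; adjusted p = 0.844). Within this one family the fitted changes therefore ran from -0.02 to 2.30 on the log2 scale.

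After long propagation the strains were again set against the wild type. COS12, COS8 and COS7 were higher by 8.62-fold, 4.60-fold and 3.04-fold. COS9, COS4, COS10 and COS2 were higher by 1.40-fold or less, and COS6 did not pass the test. In all, 7 of 8 members were higher, where 40.9% of all tested genes were higher and 36.9% lower. Here too the balance turned with the scaling. With equal array medians 5 members and 1879 of all genes were higher and 2384 genes lower. After quantile normalization 6 members and 1789 genes were higher and 2293 genes lower. The 7 members called on the deposited scale were all free of overlap with the wild type, beside a share of 41.9% of all tested genes with a rise. The median log2 change was 0.45 for the family against 0.03 for all genes. The 3 members at least 2-fold higher stand beside a share of 9.76% of all tested genes. The wild-type arrays are the same as in the comparison above, so the comparisons are not independent of each other.

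The log2 change of COS12 at the 12th restreaking was 3.11 (95% interval 2.19 to 4.02; adjusted p = 1.3e-05). Those of COS8 and COS7 were 2.20 ± 0.07 (SE; adjusted p = 5.48e-12) and 1.60 ± 0.07 (SE; adjusted p = 7.96e-11). COS9 read 402, 400.5 and 419.7 at the 12th restreaking (log2 change 0.48, adjusted p = 4.17e-05), and COS4 read 3516, 3643 and 3758 (log2 change 0.42, adjusted p = 1.27e-05). Neither overlapped the wild type.

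COS2 read 5605, 5665 and 5680.4 (log2 change 0.22, adjusted p = 0.000361), a call lost with equal array medians (adjusted p = 0.0644). COS10 read 140.0, 151 and 171 and passed on the deposited scale (log2 change 0.28, adjusted p = 0.0159). It did not pass without replicate 3 of the 12th restreaking (adjusted p = 0.0879) or with equal array medians (adjusted p = 0.117), and it pointed down after quantile normalization (log2 change -0.16, adjusted p = 0.148). COS6 read 1260.2, 1049 and 1326 (log2 change 0.01, 95% interval -0.19 to 0.21; adjusted p = 0.936).

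**Figure D2:**
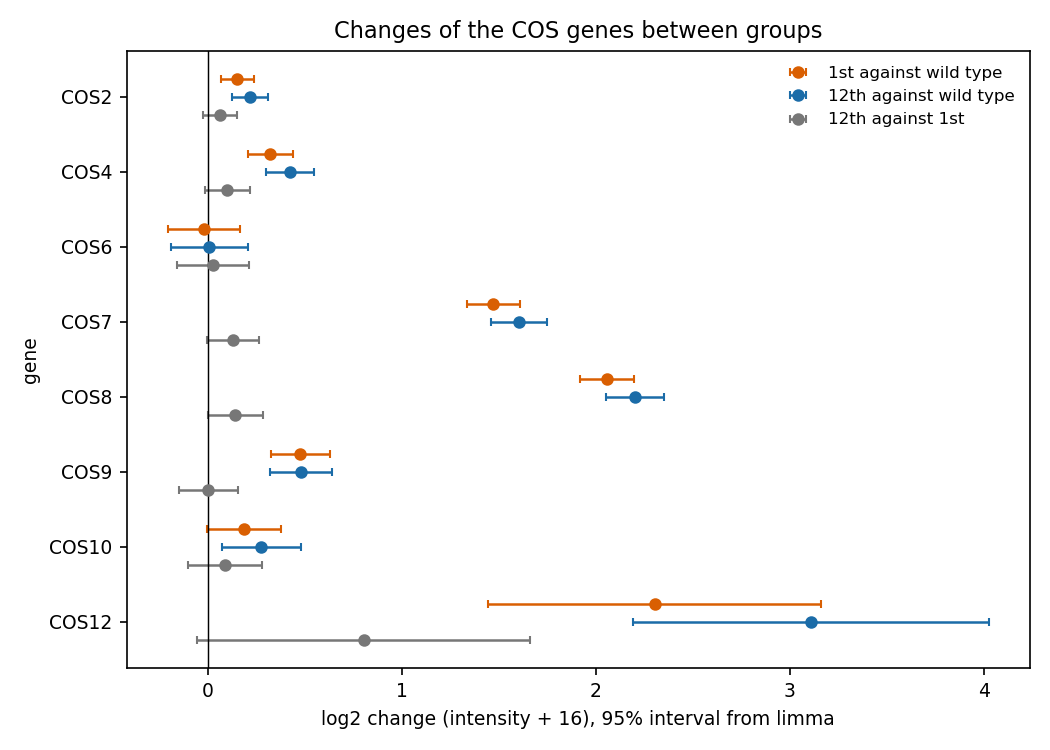
Fitted log2 change of each COS gene with its 95% interval from limma, for the 1st and the 12th restreaking against the wild type and for the 12th against the 1st (horizontal axis, log2 of intensity + 16). The changes of COS7, COS8 and COS12 against the wild type lie above 1, and the intervals of the 12th against the 1st restreaking reach or come close to 0 for every member.

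The comparison of the 12th with the 1st restreaking asked what differed between the deletion strains sampled late and early. Replicates 3 and 4 of the 1st restreaking read high in LYS2 and MET17, and all arrays of the 12th read low. With all clones, propagation and this marker difference cannot be told apart. No COS gene passed limma's test (adjusted p from 0.159 for COS8 to 0.981 for COS9), where 15.9% of all tested genes did. That share rests on 866 genes, which became 267 without replicate 3 of the 12th restreaking and 338 with the clones of the 1st averaged in pairs, both with 0 COS genes. At an unadjusted p under 0.05, 1 member passed (COS8, unadjusted p = 0.0473 in limma), where 30.5% of all tested genes did. The groups overlapped for all 8 members. The fitted log2 differences ran from 0.00 for COS9 to 0.80 for COS12, whose 95% interval ran from -0.05 to 1.66. For COS8 the interval was 0.002 to 0.28, and for COS7 it was -0.004 to 0.26. The result depended on the clones. With replicates 1 and 2 alone as the 1st restreaking, COS12, COS8 and COS4 were higher at the 12th. In that fit 362 of 5449 genes were higher and 411 lower. With replicates 3 and 4 alone no member passed, where 242 genes were higher and 369 lower.

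The clones of the 1st restreaking divided in the same way for every member. For all 8 COS genes, replicates 3 and 4 both read higher than replicates 1 and 2, where 25.1% of all tested genes had that order. Among 54 other genes at the same chromosome ends, 24 had it and 7 had the opposite order. The order held for all 8 members with equal array medians and after quantile normalization as well. These 2 pairs of clones are also those that differ in LYS2 and MET17, which read high in replicates 3 and 4 and near or under the background limit in replicates 1 and 2. The pairs were known from earlier results of these data, so the count is a description.

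Outside COS12 the step between the pairs was small, from 1.06-fold for COS2 to 1.17-fold for COS6 in mean intensity. For COS12 it was 3.96-fold. Only 6 of the 5449 tested genes were at least 2-fold higher in replicates 3 and 4 on the log2(intensity + 16) scale, or 0.110%. They were MET17, LYS2, the pheromone-regulated membrane protein gene PRM2, COS12, its neighbour YGL262W, and CDA1, a chitin deacetylase gene of the spore wall. This list was drawn up after the values were seen.

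The arrays of the 12th restreaking matched neither pair throughout. LYS2 read 53.7, 29.3 and 10.8 there and MET17 read 96.9, 30.6 and 8.09, low as in replicates 1 and 2. COS12 at 513, 512 and 524 was instead near the level of replicates 3 and 4. PRM2 stood at 83.5 and 73.5 in the first pair of clones, at 359 and 336 in the second pair, and at 52.1, 52.8 and 55.5 at the 12th restreaking. CDA1 read 56.3, 49.0 and 65.4 there, near the 70.4 and 57.0 of replicates 1 and 2. Of these 6 genes, COS12 and YGL262W were the ones whose late arrays resembled replicates 3 and 4. Another 3 genes, YIG1, RCK1 and CIT3, were at least 2-fold lower in replicates 3 and 4. RCK1 read 2571 and 2748 on replicates 1 and 2, 1116 and 1322 on replicates 3 and 4, and 1087, 1396 and 1205 at the 12th restreaking. The late arrays of YIG1 were also near replicates 3 and 4, while those of CIT3 were below both pairs. The resemblance was therefore not particular to COS12 and YGL262W.

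COS12 is the outermost protein-coding gene of the gene table at the left end of chromosome VII, and YGL262W, a gene of unknown role, is the next one inward. YGL262W read 6.91, 2.13 and 3.96 in the wild type, all under the background limit. It reached 43.3 and 45.9 on replicates 1 and 2 of the 1st restreaking, 168 and 149 on replicates 3 and 4, and 122, 137 and 128 at the 12th restreaking. As for COS12, replicates 3 and 4 lay above replicates 1 and 2, with the arrays of the 12th restreaking nearer to replicates 3 and 4. It was at least 5.93-fold higher than the wild type at the 1st restreaking (adjusted p = 1.74e-05) and at least 9.10-fold at the 12th (adjusted p = 5.63e-06). These bounds set the wild type at the higher of its value and the background limit on each array.

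Further inward the clone pairs differed too, by less than for COS12. YGL258W-A, the gene at rank 6 from the end, gave 98.4 and 92.2 for replicates 1 and 2, then 194 and 191 for replicates 3 and 4, and 188, 197 and 181 at the 12th restreaking, against 15.2, 15.3 and 13.8 in the wild type. The pairs thus differed by 2.02-fold. YPS5, a gene of the yapsin protease family at rank 5, read 58.3 and 62.1, then 90.4 and 91.1, and 89.0, 88.9 and 105 at the 12th restreaking, against 16.5, 14.8 and 14.9. There the pairs differed by 1.51-fold, and both genes were higher than in the wild type at both restreakings. Their wild-type values lie near the background limit, so the folds against it are imprecise.

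The 4 innermost of the 10 genes at this end did not share the large rise. VEL1 at rank 7 did not pass at the 1st restreaking (log2 change 0.23, adjusted p = 0.106). The mannosyltransferase gene MNT2 at rank 8 was lower (log2 change -0.32, adjusted p = 0.000193). The alcohol dehydrogenase gene ADH4 at rank 9 was slightly higher (log2 change 0.30, adjusted p = 0.00301), and the zinc transporter gene ZRT1 at rank 10 slightly lower (log2 change -0.22, adjusted p = 0.0168). Changes above 1 on the log2 scale were thus found from rank 1 to rank 6 and not beyond. The genes at ranks 3 and 4 were not analysed here.

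**Figure D3:**
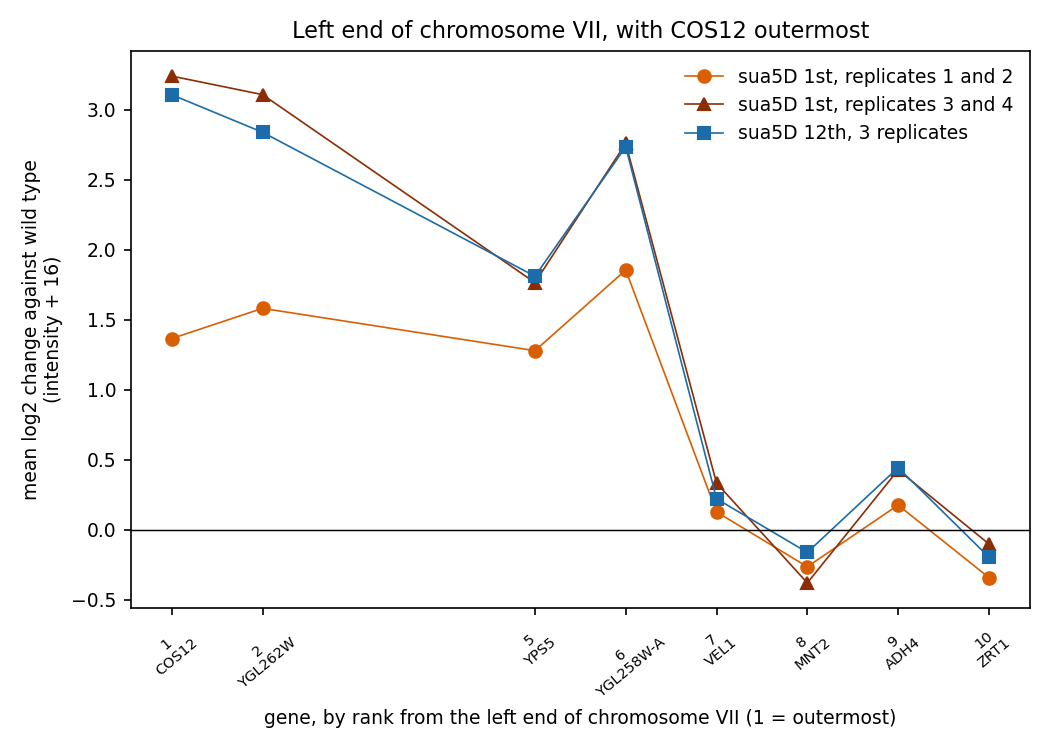
Mean log2 change against the wild type (log2 of intensity + 16) of the measured genes at the left end of chromosome VII, in order from the end, for replicates 1 and 2 and replicates 3 and 4 of the 1st restreaking and for the 12th restreaking. For COS12, YGL262W, YPS5 and YGL258W-A the 12th restreaking lies next to replicates 3 and 4 and above replicates 1 and 2, and the genes from rank 7 inward lie near 0.

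The other COS genes were set beside their neighbours in the same way. The 8 ends that hold a measured COS gene had 54 other measured genes among the 10 outermost of each. Of these, 41 were higher and 8 lower at the 1st restreaking (median log2 change 0.74), and 18 were at least 2-fold higher. That is 75.9% higher, beside 6 of 8 COS genes and 41.5% of all tested genes, of which 37.5% were lower and 10.3% at least 2-fold higher. After quantile normalization the counts at these ends were 30 higher and 9 lower. At the chromosome ends without a measured COS gene, 114 of 173 genes were higher and 30 lower (median log2 change 0.54). Whether the COS genes or their ends differ from other chromosome ends was not tested.

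COS8, at rank 4 on the left end of chromosome VIII, had a fitted log2 change of 2.06, while those of its 4 measured neighbours ran from 0.67 to 0.96. COS12 and COS7 also stood above the median of their ends, 0.30 and 0.81. COS6, COS2, COS10, COS4 and COS9 stood below theirs, with medians between 0.44 and 0.88. Among the members without a shared probe set, rank from the end did not order the changes. COS6 at rank 2 had a log2 change of -0.02 and COS8 at rank 4 one of 2.06. The outermost genes COS2, COS7 and COS12 ran from the smallest called change to the largest. However, the probe sets of COS2 and COS7 are shared, so their values cannot be assigned to these positions. The call of COS2 was also lost with equal array medians.

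The 5 neighbours with the smallest adjusted p were SRY1, MAL31, BSC5, SNO3 and THI13, all higher at both restreakings. SRY1, a dehydratase gene at the end of COS9, read 183 ± 18.5 (SD, n = 3) in the wild type and 1324 ± 39.6 (SD, n = 4) at the 1st restreaking, 6.76-fold higher (adjusted p = 1.83e-13). The maltose permease gene MAL31, at the end of COS2, was 5.46-fold higher, BSC5, at the end of COS10, 5.35-fold, and SNO3, of the pyridoxine gene family, at the end of COS4, 3.39-fold. THI13, of thiamine synthesis, at the end of COS7, was 5.22-fold higher and belongs to a family of near-identical genes. The probe sets of SNO3 and THI13 carry the suffix _s_at, so their rises cannot be assigned to these genes alone. COS2 and COS10 changed little at ends where MAL31 and BSC5 changed more than 5-fold.

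**Figure D4:**
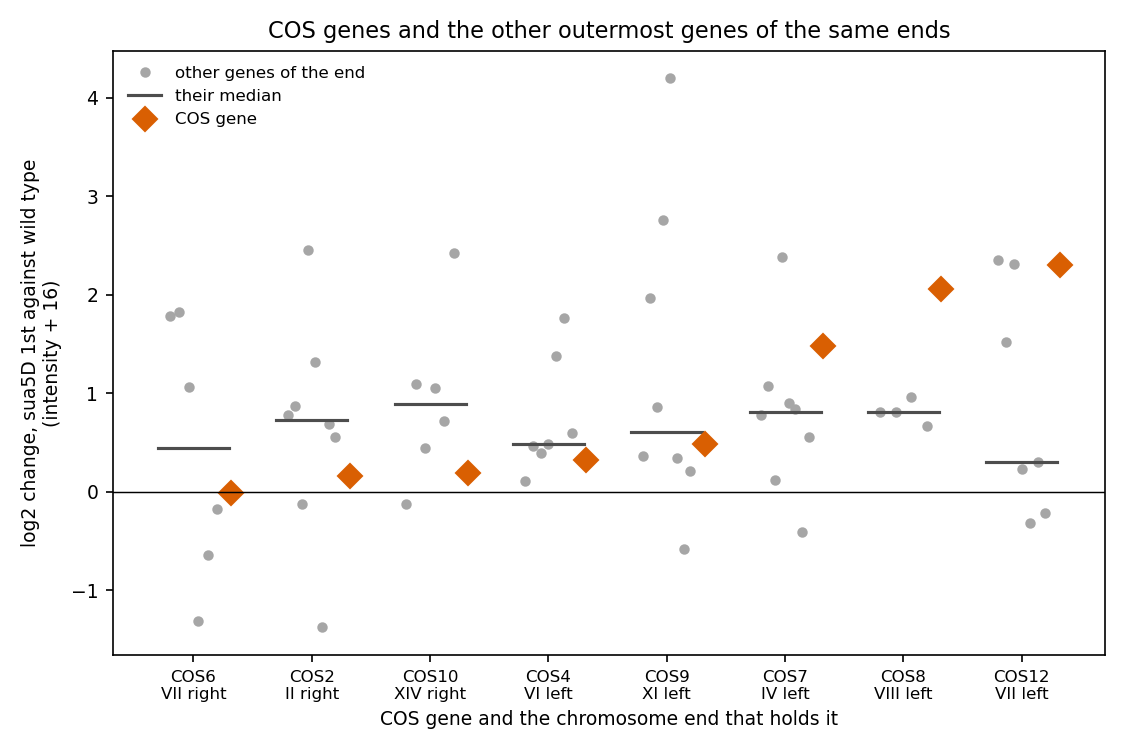
Log2 change at the 1st restreaking against the wild type (log2 of intensity + 16) of each COS gene (diamond) and of the other measured genes among the 10 outermost at the same chromosome end (grey points, with a line at their median), ordered by the change of the COS gene. COS7, COS8 and COS12 lie above the median of their ends and the other 5 members below it.

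The mean profile of the 8 COS genes over the 10 arrays was closest to those of SNA2, ATG12, YPS1, MPH2 and PGA1, by the root mean square difference of centred log2 values (0.08 to 0.10). SNA2 encodes a vacuolar membrane protein, ATG12 a ubiquitin-like protein of autophagy, YPS1 a cell surface protease, MPH2 (measured by a shared _s_at probe set) a sugar permease and PGA1 a protein of GPI anchor synthesis. MPH2 lies at rank 2 on the left end of chromosome IV, next to COS7 at rank 1. SNA2 read 549, 597 and 554 in the wild type, 1029, 1059, 1197 and 1235 at the 1st restreaking, and 1283, 1197 and 1259 at the 12th. It shared the order of the clone pairs. For COS12 alone, a profile added after the values were seen, the 2 closest of all genes were YGL262W (0.21) and YGL258W-A (0.36), both from the same chromosome end, followed by the spore wall gene OSW2 (0.49).

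Lists of genes tied to the work or the setting of the Cos proteins were described next. Their counts stand beside the shares of all tested genes, 41.5% higher and 37.5% lower at the 1st restreaking and 40.9% and 36.9% at the 12th, and nothing particular to a list is read from them. The DUP240 genes encode relatives of the Cos proteins, and 5 of 10 listed were measured. At the 1st restreaking 3 were higher and 2 lower (median log2 change 0.57), and at the 12th 2 were higher and 1 lower. PRM9 was 2.33-fold lower (187 ± 7.65, SD, n = 3, to 71.6 ± 6.47, n = 4), PRM8 1.88-fold higher and UIP3 1.54-fold higher. PRM8 and PRM9 are known as pheromone-regulated genes, and the strains compared differ in mating type. Whether mating type bears on their changes was not tested, and it cannot be told apart from loss of SUA5 here.

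Of 20 genes of ESCRT and multivesicular body sorting, 13 were higher and 4 lower at the 1st restreaking (median log2 change 0.27), and 11 were higher and 2 lower at the 12th, where 41.5% and 40.9% of all tested genes were higher and 37.5% and 36.9% lower. With equal array medians 10 were higher and 4 lower at the 1st restreaking. None changed 2-fold. The ESCRT-I subunit gene STP22 rose 1.78-fold, the ESCRT-III subunit gene VPS20 1.90-fold and DID2, of ESCRT-III turnover, 1.62-fold. RSP5, the ubiquitin ligase that marks many membrane proteins for this route, fell 1.44-fold.

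Of 15 genes of silencing at chromosome ends, 5 were higher and 6 lower at the 1st restreaking (median log2 change -0.10), and 4 were higher and 9 lower at the 12th (median log2 change -0.38). The counts at the 1st restreaking are near the shares of all tested genes, 41.5% higher and 37.5% lower. With equal array medians 5 were higher and 10 lower there. SAS5, of a histone acetyltransferase complex that limits the spread of silencing, rose 2.33-fold. DOT1, a histone methyltransferase, was 2.01-fold lower. SIR3, a structural protein of silent chromatin, was 1.76-fold lower. SIR2 and SIR4, picked after their values were seen, were 1.53-fold and 1.35-fold lower. Of the 5 higher genes only SAS5 is named here, so the named genes do not show the balance of the list. SIR3 read 234, 229.7, 223 and 248 on the 4 arrays of the 1st restreaking. Whether the silencing genes bear on the COS genes was not tested.

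Of 14 genes of NAD synthesis and salvage, 8 were higher and 2 lower at the 1st restreaking (median log2 change 0.34), and 7 were higher and 4 lower at the 12th. The shares of all tested genes were 41.5% higher and 37.5% lower, then 40.9% and 36.9%. With equal array medians 7 were higher and 4 lower at the 1st restreaking. NAD is the cosubstrate of Sir2. BNA1 and BNA2, of synthesis from tryptophan, rose 2.89-fold and 4.40-fold, and BNA6, of the same pathway, 1.56-fold. BNA2 stood at 617 and 605 in the first pair of clones and at 974 and 926 in the second, and at the 12th restreaking it read 456, 424 and 458, lower than at the 1st (adjusted p = 0.00568). The late arrays of BNA2 were thus below both clone pairs.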

How the data were processed

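As deposited, each of 10928 probe sets has a linear intensity on each array. Summary software, background correction and genome build are not given in the sources used here. The authors' scaling shows in the values, since the mean without the top and bottom 2% of probe sets came to 500.2 on all arrays. Gene names came from the platform annotation and were brought up to date through gene identifiers in the R64 RefSeq table, which matched 5498 probe sets and left 5449 genes after keeping the brightest per gene. The same table gave the 10 outermost protein-coding genes of each chromosome end.

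Intensities were taken as log2(intensity + 16), which understates the changes of dim genes. Percentile 95 of the 1746 Schizosaccharomyces pombe probe sets on an array served as its background limit. Groups came from the sample titles. The test was limma 3.58.1 (R 4.3.3), two-sided, with 1 mean per group, all 10 arrays and an intensity trend. p-values were adjusted by Benjamini-Hochberg over all 5449 genes, with a threshold of 0.05. It was tried on simulated data with known changes.

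The members and lists were chosen with earlier results of these data known. All measured COS genes and SUA5 are named, with the 5 genes closest to their mean profile, the 3 genes of each list and the 5 genes at the COS ends with the smallest adjusted p at the 1st restreaking. The other genes at the left end of chromosome VII, the genes that divide the clones, SIR2, SIR4, RSP5 and the profiles closest to COS12 and COS8 were named after their values were seen. Alternatives were the pseudocount, scaling, a filter on dim genes, the trend, the groups fitted, a replicate block, each array left out and the clone pairs. No COS gene has a second probe set, so that alternative could not be run.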

Additional observations from a re-analysis of the deposited data

How the results depend on the processing

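Against the wild type, COS4, COS7, COS8, COS9 and COS12 kept their direction and their call under all 210 combinations of alternative, gene and restreaking tried. Some of these could not change the direction, so the count overstates the number of separate checks. For example, leaving out clones of the 1st restreaking does not alter the fitted change of the 12th against the wild type. The count of COS members called was 5 with equal array medians at both restreakings. It was 3 and 4 among the 5 members without a shared probe set. The family's median log2 change fell to 0.29 and 0.34 with equal medians. COS6 and COS10 had no settled direction. COS6 turned to 0.093 at the 1st restreaking with replicates 3 and 4 alone, where its range over arrays left out was -0.074 to 0.042, and to -0.11 at the 12th with equal medians, with a range of -0.059 to 0.11. COS10 turned to -0.32 and -0.16 after quantile normalization. In the 1st restreaking it passed without an intensity trend (adjusted p = 0.0457), without replicate 1 (adjusted p = 0.0186) and with replicates 3 and 4 alone (adjusted p = 0.0172).

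The comparison of the 12th with the 1st restreaking depended most on the clones. With replicates 1 and 2 alone as the 1st restreaking, 3 members were higher at the 12th, where 362 of 5449 genes were higher and 411 lower. They were COS12 (log2 change 1.74, adjusted p = 1.61e-07), COS8 (0.25, adjusted p = 0.0179) and COS4 (0.20, adjusted p = 0.0131). With replicates 3 and 4 alone none passed, and COS12 pointed down (-0.13, adjusted p = 0.329), as did COS6 (-0.084), COS9 (-0.059), COS10 (-0.0030) and the family's median (-0.00075). After quantile normalization 1 member passed, COS2 (adjusted p = 0.0477). Over arrays left out, COS6 ran from -0.040 to 0.13, COS9 from -0.035 to 0.037, and the count of members called stayed 0.

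In that comparison the 866 genes called among all tested became 338 with the clones averaged in pairs, and 267 to 921 over arrays left out, the lowest without replicate 3 of the 12th restreaking. Of the 54 other genes at the COS ends 16 were called, 3 higher and 13 lower at the 12th restreaking. Among all 5449 tested genes 372 were higher and 494 lower. The 16 calls at the COS ends became 7 with the replicate block, 5 with averaged pairs, 7 with replicates 3 and 4 alone and 4 to 17 over arrays left out. The lists had 3 calls for the DUP240 family, 2 for ESCRT, 7 for silencing and 4 for NAD. With averaged pairs these became 0, 0, 2 and 2. With replicates 3 and 4 alone they became 0 for ESCRT and 4 for silencing, and with the replicate block 4 for silencing. Over arrays left out they ran from 1 to 4 for DUP240, 1 to 4 for ESCRT, 2 to 7 for silencing and 2 to 6 for NAD. The causes of these moves were not tested. Some of these settings leave fewer arrays. The replicate block in effect does so too, since replicate 4 of the 1st restreaking is the only array with its number and its block term absorbs it. Replicate numbers do not pair the groups: deviations of same-numbered arrays correlated between -0.27 and 0.08, and the replicate block changed no call of a COS gene. The number of arrays and, for genes dim in the wild type, the background limit bound the precision.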

Other observations

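Some genes beside the COS genes at chromosome ends divided the clones in the opposite direction to COS12, or fell. They were picked after their values were seen. JEN1, the lactate permease gene at rank 7 on the end of COS9, read 22.2, 41.7 and 40.7 in the wild type. At the 1st restreaking it stood at 1142 and 1304 on the arrays of replicates 1 and 2 and at 634 and 695 on those of replicates 3 and 4, against 427, 535 and 511 at the 12th. COS9 itself had 403 and 374 for the first pair of clones and 414 and 437 for the second. BIO2, a biotin synthase gene on the end of COS6, read 556, 525 and 527 in the wild type, 197, 215, 208 and 205 at the 1st restreaking, and 173, 178 and 179 at the 12th, all lower than the wild type. ZUO1, the ribosome-associated chaperone gene at rank 9 on the same end, was lower as well (log2 change -0.65 at the 1st restreaking). COS6 between them and the end overlapped the wild type.

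The profile of COS8 over the 10 arrays was closest to those of PIC2, a mitochondrial carrier gene, and PPT2 (root mean square difference 0.10 for each). PIC2 read 577, 607 and 606 in the wild type, 2072, 2212, 2384 and 2597 at the 1st restreaking, and 2381, 2453 and 2561 at the 12th. Neither gene is on chromosome VIII, which holds COS8.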
